A study of Mus musculus with 3 samples.

Results

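Macrophages of the thymus clear the thymocytes that die in selection, and 10 genes of that work were followed here across thymus sections of *Trp53*-/- (KO) and wild-type (WT) mice. They were taken by name from the 54838 genes listed in the spatial transcriptomes and fall into 4 programmes. The complement C1q genes are *C1qa*, *C1qb* and *C1qc*. The receptors for apoptotic cells are *Mertk*, *Axl* and *Timd4*, the iron and haem genes are *Slc40a1* and *Hmox1*, and the lysosome and lysozyme genes are *Cd68* and *Lyz2*. All 10 had UMIs in every section.

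The sections came from 3 female C57BL/6 mice that were perfused with PBS before the thymus was taken. By the labels, KO1134 was a *Trp53*-/- mouse of 17 weeks, KO1308 a *Trp53*-/- mouse of 21 weeks, and the WT mouse (*Trp53*+/+) was 17 weeks old. The deletion is in the germ line of these KO mice, so macrophages and the cells they clear both carry it. Polyadenylated RNA was captured on slides of barcoded spots, and unique molecular identifiers (UMIs), each standing for 1 captured molecule, were counted per gene and spot. Levels are given as UMIs per 1000000 UMIs (CPM) summed over 27 µm bins of tissue with at least 300 genes. With 1 WT section no test between genotypes was run. The 95% intervals in square brackets cover counting error only, not the spread between mice, which is seen only in the 2 KO sections. The KO slides were also permeabilised slightly longer than the WT slide, and this and the genotype cannot be told apart.

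C1q is the recognition unit of the classical complement pathway. It is made largely by macrophages, binds dying cells and helps their uptake. MERTK and AXL are receptor tyrosine kinases that bind phosphatidylserine on apoptotic cells through the bridging proteins GAS6 and protein S, whereas TIM4, the product of *Timd4*, binds this lipid directly. Ferroportin (*Slc40a1*) is the iron exporter and haem oxygenase 1 (*Hmox1*) opens the haem ring, and macrophages that take up red cells carry both. CD68 is a glycoprotein of late endosomes and lysosomes, and *Lyz2* encodes the lysozyme of macrophages, monocytes and neutrophils. In the thymus such cells are scattered through the cortex, where most thymocytes die, and through the medulla.

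The tissue bins numbered 16140 in KO1308, 12009 in KO1134 and 27104 in WT, with means of 1090, 2591 and 1497 UMIs per bin. *Trp53* itself stood at 25.1 CPM in KO1308, 17.0 CPM in KO1134 and 79.9 CPM in WT, so it was lower in both KO sections and not at 0. Each bin was placed in cortex, medulla, fat or B-cell zone by the marker list that was highest around it, none of which holds a member. The sections differed in this make-up. Cortex took 24.7% of the bins in KO1308, 36.5% in KO1134 and 53.5% in WT, and medulla took 53.5%, 21.3% and 16.7%. The WT section held 74 bins of fat against 1580 and 1914 in the KO sections, and 25.8% of its bins fitted no list. The medulla bins of KO1308 still carried the cortex list at 1838 CPM beside 2696 CPM in its cortex bins, so cortex and medulla were less cleanly parted there. In the B-cell zone bins of WT the cortex list stood at 1646 CPM, against 878 CPM in KO1308 and 474 CPM in KO1134. The B-cell zone list stood at 285, 611 and 882 CPM in that order, so the zones of the 3 sections were not alike. The defining macrophage genes *Adgre1* (10.03 to 16.6 CPM), *Csf1r* (42.8 to 89.5 CPM) and *Fcgr1* (6.73 to 18.1 CPM) were present in all 3 sections. A bin is a small region that can hold several cells, so fewer macrophages and less RNA per macrophage cannot be told apart in any value given here.

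The 3 C1q genes are neighbours on mouse chromosome 4 (GRCm38, minus strand, 18.7 kb from end to end). *C1qb* lies at chr4:136880129-136886187, *C1qc* at chr4:136889804-136893065 and *C1qa* at chr4:136895917-136898803, all protein coding. The receptor genes lie at chr2:128698956-128802894 (*Mertk*), chr7:25757273-25788705 (*Axl*) and chr11:46810800-46844332 (*Timd4*). The others lie at chr1:45908068-45926523 (*Slc40a1*), chr8:75093621-75100589 (*Hmox1*), chr11:69664213-69666153 (*Cd68*) and chr10:117277331-117282321 (*Lyz2*). The 250 bases before the RefSeq transcript start of *C1qb* and *C1qc* are shown since these neighbours followed each other across the tissue, and those of *Lyz2* and *Timd4* since both were high in the B-cell zone. RefSeq promoter entries (GRCm38.p6) were found for 7 of the 10 members, and *C1qa*, *Slc40a1* and *Hmox1* had none. Capitals mark GAGGAA or its reverse complement TTCCTC, the core bound by the myeloid factor PU.1, searched on both strands. The windows, each on the strand of its gene, are chr4:136886201-136886450 (minus strand), chr4:136892915-136893164 (minus), chr10:117282273-117282522 (minus) and chr11:46810549-46810798 (plus), in the order of the lines. The RefSeq starts of *C1qc* and *Lyz2* lie inside the gene spans given above, so their windows overlap those spans.
C1qb: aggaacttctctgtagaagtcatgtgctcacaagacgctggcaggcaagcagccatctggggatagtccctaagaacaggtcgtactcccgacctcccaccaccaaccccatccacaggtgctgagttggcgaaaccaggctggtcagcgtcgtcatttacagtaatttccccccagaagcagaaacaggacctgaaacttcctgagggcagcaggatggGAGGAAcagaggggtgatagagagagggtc
C1qc: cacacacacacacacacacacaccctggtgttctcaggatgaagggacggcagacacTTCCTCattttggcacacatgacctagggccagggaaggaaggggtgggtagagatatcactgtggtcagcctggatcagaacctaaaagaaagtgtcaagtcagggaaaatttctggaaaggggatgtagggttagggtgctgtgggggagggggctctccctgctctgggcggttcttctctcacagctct
Lyz2: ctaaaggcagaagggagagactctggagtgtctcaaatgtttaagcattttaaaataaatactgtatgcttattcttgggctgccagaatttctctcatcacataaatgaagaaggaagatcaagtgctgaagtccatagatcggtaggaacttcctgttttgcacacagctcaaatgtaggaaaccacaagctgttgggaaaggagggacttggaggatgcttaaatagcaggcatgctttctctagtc
Timd4: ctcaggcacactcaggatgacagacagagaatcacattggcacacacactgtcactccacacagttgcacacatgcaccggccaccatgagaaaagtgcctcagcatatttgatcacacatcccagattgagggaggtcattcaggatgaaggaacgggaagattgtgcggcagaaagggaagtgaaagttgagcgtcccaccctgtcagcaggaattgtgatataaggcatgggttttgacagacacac
The PU.1 core was present in 4 of the 7 windows (*Axl*, *C1qb*, *C1qc* and *Cd68*) and in 23.3% of 32851 promoters of the same length. The windows of *Lyz2*, *Timd4* and *Mertk* held none. These are matches of letters and not binding measured in these samples.

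Over whole sections, C1q was the programme that was higher than WT in both KO sections by similar amounts, and within it *C1qa* had the largest ratios. The 3 C1q genes together stood at 549 CPM in KO1308, 616 CPM in KO1134 and 338 CPM in WT, which is 1.62-fold [1.58-1.66] and 1.82-fold [1.78-1.86] the WT level. Weighted to the compartment mix of the WT section, these ratios lay further apart, at 1.22 and 2.001. *C1qa* stood at 272, 219 and 107 CPM, 2.54-fold [2.43-2.64] and 2.04-fold [1.96-2.12] the WT level. It was the 1 member of 10 at least 2-fold above WT in both KO sections. Among 17400 genes with at least 100 UMIs, 10.7% were, so a count of 1 in 10 is the background share. No member was at least 2-fold lower in both, as 2.1% of all genes were.

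The other C1q genes moved less and not alike. *C1qc* stood at 154 CPM in KO1308, 189 CPM in KO1134 and 108 CPM in WT, above WT in both. *C1qb* stood at 123, 207 and 123 CPM, so that KO1308 was at the WT level (1.00-fold [0.952-1.05]) and KO1134 above it (1.69-fold [1.63-1.75]). The 3 proteins are built into one C1q molecule in equal numbers, and in KO1134 and WT the UMIs of the genes were nearly even as well. There were 1.05 *C1qa* UMIs for each *C1qb* UMI in KO1134 [1.02-1.09] and 0.874 in WT [0.839-0.910]. KO1308 stood apart with 2.21 [2.10-2.33], and this excess was seen in its cortex (1.97), medulla (2.42), B-cell zone (1.72) and fat (3). In the fat of KO1134 the ratio was 1.68 [1.41-2.02], above that of its other compartments. Slide areas of KO1308 over 135 µm from tissue gave 94 UMIs of *C1qa*, 33 of *C1qc* and 17 of *C1qb*. These are 244, 85.8 and 44.2 CPM of the UMIs in those areas, beside 272, 154 and 123 CPM in tissue. The part of such UMIs in the tissue values was not tested. Without *C1qa*, the KO levels of C1q were 1.197-fold (KO1308) and 1.72-fold (KO1134) the WT level.

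The remaining programmes separated the 2 KO mice. Their summed levels were above WT in KO1134 in every case, and in KO1308 they ranged from below WT (iron and haem) to modestly above it (lysosome and lysozyme). Over all genes with at least 100 UMIs the median ratio to WT was 1.13 in KO1308 and 1.01 in KO1134, beside medians of 1.05 and 1.74 over the 10 members. In KO1134, 4 members (*Axl*, *C1qa*, *Lyz2* and *Timd4*) were at least 2-fold above WT, where 15.1% of all genes were. In KO1308 it was *C1qa* alone, where 20.2% of all genes were. Both KO ratios use the same WT section.

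**Figure D1:**
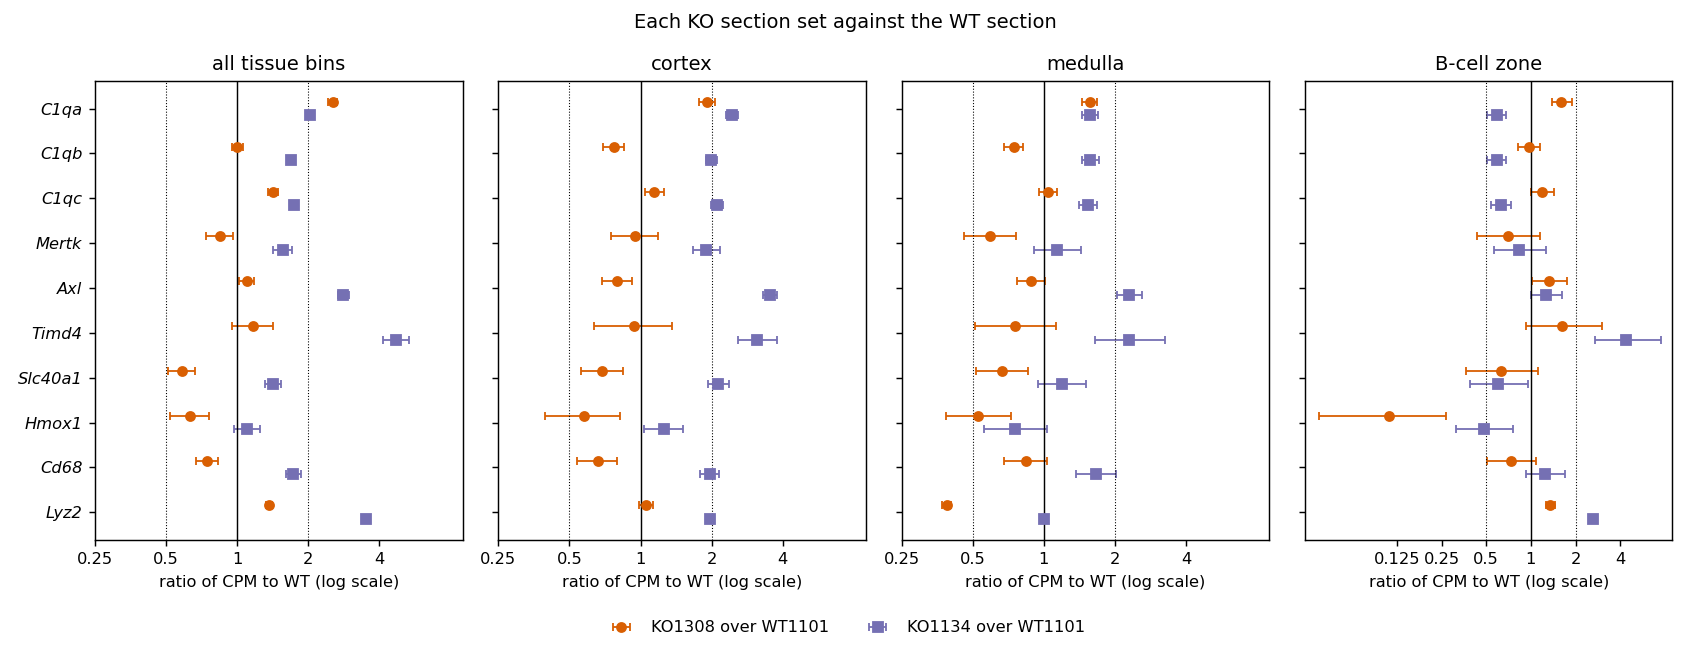
Ratio of the CPM of each KO section to the CPM of the WT section (WT1101 in the pictures, log scale) for the 10 members, over all tissue bins and in cortex, medulla and B-cell zone; bars are 95% counting intervals and dotted lines mark 0.5 and 2. The KO1134 points lie right of the KO1308 points for most genes, and *C1qa* is the gene at 2 or above in both over all tissue bins (2.54 and 2.04).

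Among the receptors, *Timd4* and *Axl* were high in KO1134 and near WT in KO1308. *Timd4* stood at 8.81 CPM in KO1308, 35.7 CPM in KO1134 and 7.59 CPM in WT, ratios of 1.16 [0.951-1.41] and 4.70 [4.14-5.35]. *Axl* stood at 59.99, 154 and 54.7 CPM, ratios of 1.10 [1.02-1.18] and 2.82 [2.68-2.96]. *Mertk*, the receptor best known from resident macrophages, stood at 17.2, 31.7 and 20.4 CPM. It was therefore below WT in KO1308 (0.842-fold [0.735-0.961]) and above it in KO1134 (1.56-fold [1.42-1.71]).

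The iron and haem genes gave the lowest ratios of the 4 programmes. *Slc40a1* stood at 17.3 CPM in KO1308, 42.3 CPM in KO1134 and 29.7 CPM in WT, 0.581-fold [0.511-0.660] and 1.42-fold [1.31-1.54]. *Hmox1* stood at 8.07, 14.1 and 12.8 CPM, 0.633-fold [0.522-0.763] and 1.10-fold [0.969-1.25], so the interval in KO1134 included 1. The mean of the KO ratios for the programme (0.961) hides opposite directions in the 2 mice. Haemoglobin and *Alas2* transcripts, a list of 5 erythroid genes all found in each section, summed to 8.81, 43.1 and 75.5 CPM in KO1308, KO1134 and WT, and were lowest in KO1308 like both iron genes. Their part in the result was not tested.

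*Lyz2* gave the most UMIs of the 10 members in each section. It stood at 412 CPM in KO1308, 1061 CPM in KO1134 and 302 CPM in WT, 1.36-fold [1.33-1.40] and 3.51-fold [3.44-3.59]. *Cd68* stood at 26.0, 60.2 and 34.8 CPM, 0.747-fold [0.671-0.830] and 1.73-fold [1.61-1.86]. *Lyz1*, the close paralogue of *Lyz2* that may share reads with it, stood at 20.2, 71.8 and 7.99 CPM. A list of 5 monocyte genes, all found in each section, summed to 431, 894 and 245 CPM and so had the same order as *Lyz2*. Within KO1134 the monocyte list stood at 942 CPM in cortex and 780 CPM in the B-cell zone, where *Lyz2* stood at 355 and 2553 CPM. In KO1308 (332 and 746 CPM) and WT (226 and 465 CPM) the monocyte list was higher in the B-cell zone. A list of 7 neutrophil genes, also all found, summed to 32.3, 15.8 and 45.4 CPM, lowest where *Lyz2* was highest. Whether monocytes contributed to the *Lyz2* UMIs was not tested.

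Which programme dominated depended on the compartment, and the main split was between C1q and *Lyz2*. Each share given next is of the UMIs of the 10 members, and UMIs are counted per molecule without division by gene length. In cortex C1q was the largest programme in every section, with 54.4% of the members' UMIs in KO1308, 46.4% in KO1134 and 46.9% in WT. The lysosome and lysozyme pair held 31.8%, 30.8% and 34.3% there, most of it *Lyz2*. The C1q share sums more genes than that of the pair. By single gene *Lyz2* was the highest in cortex, at 190 CPM in KO1308, 355 CPM in KO1134 and 181 CPM in WT. The highest C1q gene stood at 169 (*C1qa*), 221 (*C1qb*) and 111 CPM (*C1qb*). In the B-cell zone the order was turned in every section, and lysosome and lysozyme held 59.4% in KO1308, 81.8% in KO1134 and 56.8% in WT against 33.4%, 11.3% and 33.5% for C1q.

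The medulla was the compartment where the sections disagreed. C1q led in KO1308 (54.6% against 35.5% for lysosome and lysozyme), whereas lysosome and lysozyme led in KO1134 (48.1% against 39.6%) and in WT (59.1% against 32.02%). Iron and haem genes had their largest share in cortex among these 3 compartments in each section (4.12%, 5.76% and 6.66%) and held 1.93% to 2.41% in medulla. The receptors held 9.67%, 17.1% and 12.1% in cortex and 7.69%, 10.3% and 6.42% in medulla in KO1308, KO1134 and WT. In fat C1q led in KO1308 with 61.2% of 577 UMIs and lysosome and lysozyme in KO1134 with 60% of 3070 UMIs. The WT fat gave 42 member UMIs, too few to compare.

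**Figure D2:**
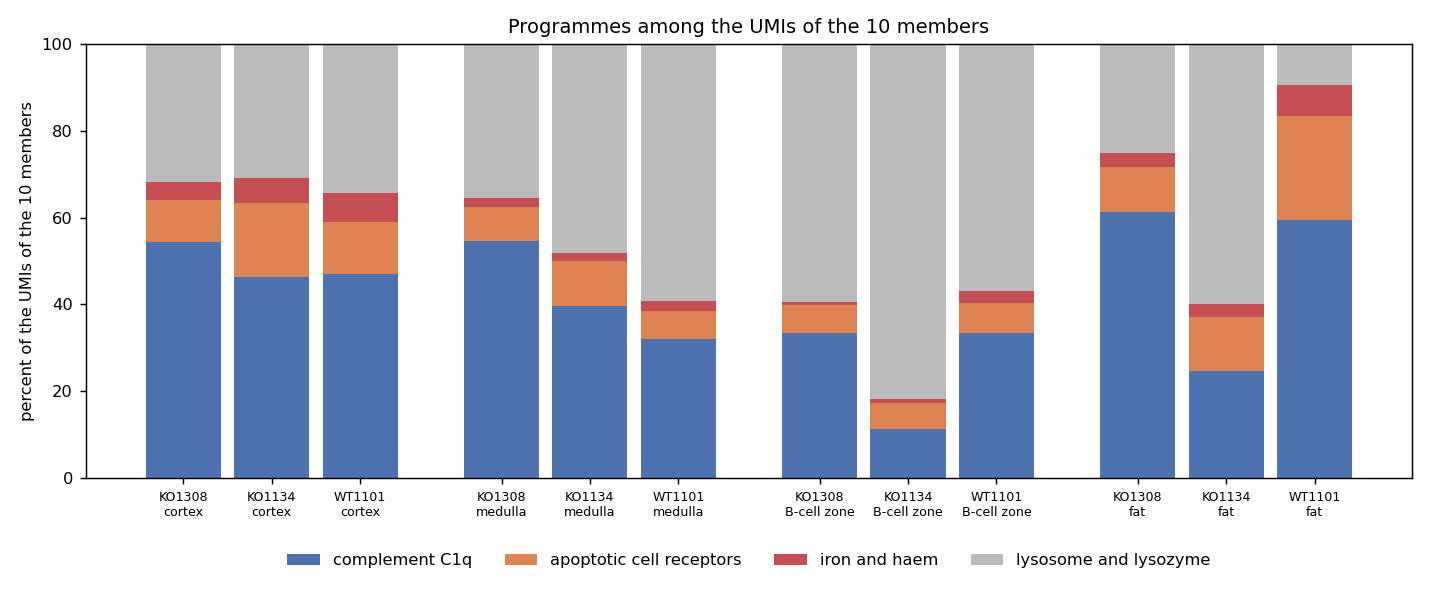
Share of the UMIs of the 10 members (percent) held by each of the 4 programmes, as stacked bars for each section within cortex, medulla, B-cell zone and fat. C1q, the sum of 3 genes, is the largest part in all 3 cortex bars (46.4% to 54.4%) and lysosome and lysozyme in all 3 B-cell zone bars (56.8% to 81.8%).

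As levels, C1q and *Lyz2* were both higher in medulla than in cortex in every section, *Lyz2* by more. C1q stood at 365 CPM in cortex and 703 CPM in medulla in KO1308, at 639 and 960 CPM in KO1134, and at 295 and 615 CPM in WT. These are medulla to cortex ratios of 1.93 [1.83-2.03], 1.504 [1.45-1.55] and 2.08 [1.99-2.18], and each C1q gene by itself was also above 1 in each section. *Lyz2* stood at 190 and 427 CPM in KO1308, 355 and 1107 CPM in KO1134, and 181 and 1100.7 CPM in WT. Its ratios were 2.24 [2.09-2.41], 3.12 [3.002-3.24] and 6.10 [5.85-6.35], and the medulla of KO1134 was thus level with that of WT. *Lyz2* was the 1 member at least 2-fold higher in medulla in all 3 sections, as were 6.99% of all genes.

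*Slc40a1* was the 1 member that was higher in cortex than in medulla in all 3 sections, a pattern shown by 27.2% of all genes. It stood at 20.9 CPM in cortex and 18.01 CPM in medulla in KO1308, 64.6 and 32.3 CPM in KO1134, and 30.2 and 27.1 CPM in WT. Only KO1134 had a medulla to cortex ratio whose interval excluded 1 (0.4995 [0.427-0.582]), and the ratios of KO1308 (0.863 [0.668-1.12]) and WT (0.895 [0.729-1.09]) did not. When compartments were called against each section's own mean, those 2 ratios were 1.04 and 1.14, so the cortical lean held in KO1134. *Cd163*, the scavenger receptor for haptoglobin and haemoglobin complexes, stood at 22.8 CPM in cortex and 3.53 CPM in medulla in WT, 24.9 and 9.31 CPM in KO1134, and 4.63 and 3.23 CPM in KO1308.

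The receptors and the other members were closer to even between cortex and medulla. *Axl* was higher in medulla in each section, with ratios of 1.86 in KO1308, 1.09 in KO1134 and 1.68 in WT. *Timd4* gave 1.21, 1.11 and 1.51, and only the WT interval [1.06-2.09] excluded 1. *Mertk* was higher in medulla in WT (28.9 against 19.5 CPM, 1.48 [1.204-1.81]) but not in KO1308 (17.1 against 18.5 CPM) or KO1134 (33.1 against 37.2 CPM). *Cd68* gave 1.29, 0.855 and 1.01, and *Hmox1* gave 1.51, 0.991 and 1.64.

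**Figure D3:**
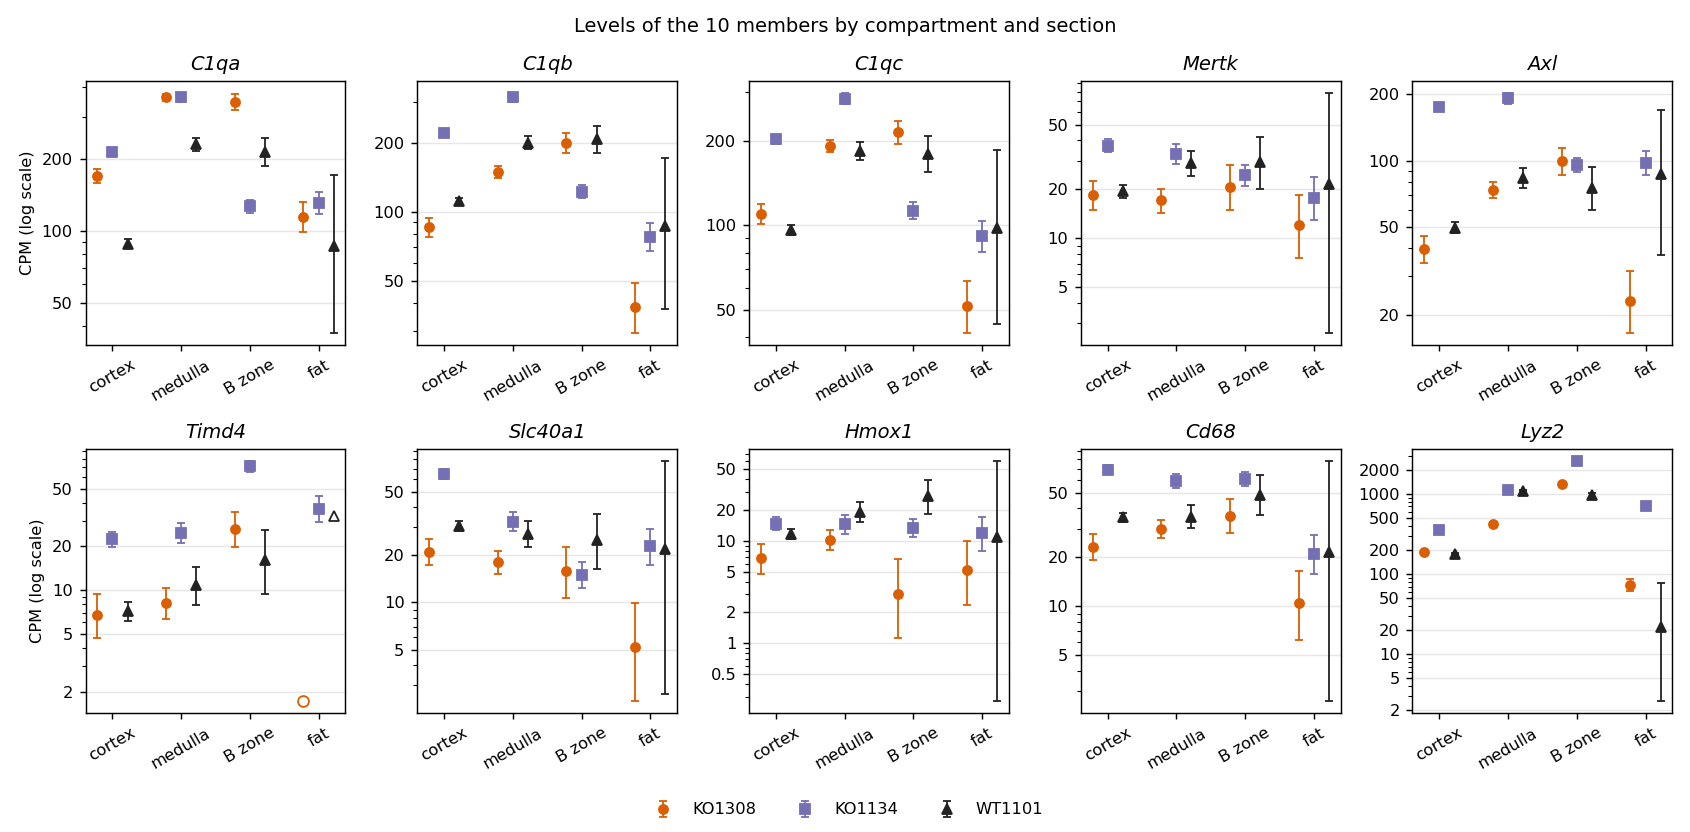
CPM (log scale) of each of the 10 members in cortex, medulla, B-cell zone and fat of the 3 sections, with 95% counting intervals; open symbols mark 0 UMIs, drawn at the limit of 3 UMIs. *Lyz2* is higher in B-cell zone (973 to 2553 CPM) than in cortex (181 to 355 CPM) in all 3 sections, whereas the C1q genes of KO1134 are lowest in B-cell zone and fat.

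Against cortex, the B-cell zone was marked by *Lyz2* and *Timd4*. *Lyz2* reached 1316 CPM there in KO1308, 2553 CPM in KO1134 and 973 CPM in WT, 6.91-fold [6.42-7.45], 7.19-fold [6.95-7.43] and 5.39-fold [5.03-5.77] the cortex level. The WT value depended on how the zone was drawn. It was 2.89 when compartments were called against each section's own mean (4.95 in KO1308 and 8.23 in KO1134) and 8.36 in bins of 50 µm (8.33 and 7.11). *Timd4* reached 26.3, 71.1 and 16.2 CPM, 3.90-fold [2.49-6.16], 3.17-fold [2.74-3.67] and 2.25-fold [1.28-3.71] the cortex level. These were the 2 members of 10 at least 2-fold above cortex in all 3 sections, beside 2.63% of all genes. TIM4 is found on resident macrophages of lymphoid tissue.

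C1q did not share this pattern in KO1134. In the B-cell zone the 3 C1q genes stood at 760 CPM in KO1308 and 602 CPM in WT, above their cortex in both (2.09-fold and 2.04-fold), but at 361 CPM in KO1134, below its cortex (0.566-fold [0.542-0.592]). *Axl* went the same way, at 99.8 CPM (2.52-fold the cortex level) in KO1308, 75.3 CPM (1.52-fold) in WT and 95.9 CPM (0.546-fold) in KO1134. *Slc40a1* was lowest relative to cortex in KO1134 as well (14.9 CPM, 0.231-fold [0.187-0.282]), and its ratios in KO1308 and WT (0.753 and 0.820) had intervals that included 1. *Hmox1* gave 6 UMIs in the B-cell zone of KO1308 (3.04 CPM) against 27.6 CPM in WT.

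Fat held few UMIs of most members. C1q stood at 204 CPM in the fat of KO1308 and 300 CPM in that of KO1134, 0.561-fold and 0.470-fold their cortex. *Timd4* gave no UMI in the fat of KO1308, which allows a level of up to 1.74 CPM, and stood at 36.4 CPM in that of KO1134. *Lyz2* stood at 73.6 CPM in KO1308 and 709 CPM in KO1134. The fat of KO1134, which borders its B-cell zone, was thus the higher for both genes that were raised over cortex in that zone.

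The B-cell zone was not the same kind of region in the 3 sections. In KO1134 a single connected group of 1820 bins (1.33 mm2) held 78.01% of the zone and formed an oval bordered by fat and by the cortex of the lobe, whereas the largest groups held 42.2% in KO1308 and 7.36% in WT. In the interior of the KO1134 oval, over 135 µm from its edge, the cortex list was at 71.9 CPM and the medulla list at 13.6 CPM, so few transcripts of thymic tissue were present. The labels name no tissue but thymus, and whether the oval was part of the thymus or separate lymphoid tissue beside it cannot be told from them. The results for this oval were looked at after its shape was seen.

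Inside the oval *Lyz2* was high throughout and the receptors were highest at its edge. *Lyz2* stood at 3093 CPM within 135 µm of the edge and 2785 CPM in the interior (1.11-fold [1.08-1.15]). *Timd4* stood at 103 and 70.6 CPM (1.46-fold [1.22-1.75]), *Axl* at 106 and 66.1 CPM (1.60-fold [1.33-1.92]) and *Mertk* at 27.3 and 18.8 CPM (1.45-fold [1.01-2.08]). The cortex list at the edge was 7.23-fold and the fat list 8.36-fold its interior level. The part of neighbouring tissue in the edge values was not tested. C1q was even across the oval, at 249 and 238 CPM (1.05-fold [0.939-1.16]). Genes of sinus macrophages and lymphatic vessels were measured there as well: *Lyve1* stood at 185 CPM at the edge and 187 CPM in the interior, *Marco* at 69.8 and 38.9 CPM, *Siglec1* at 23.6 and 9.41 CPM and *Cd5l* at 40.2 and 24.8 CPM. The neutrophil list was near 0 (4.16 and 0.523 CPM), and the monocyte list stood at 645 and 612 CPM.

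The B-cell zone bins of KO1134 outside the oval were 513 in number and resembled the other sections more. C1q stood at 877 CPM in them and *Lyz2* at 1067 CPM, and *Marco* and *Lyve1* gave no UMI. Without the oval, KO1134 had 2.06-fold the WT level of *Lyz2* instead of 3.51-fold and 3.24-fold the WT level of *Timd4* instead of 4.70-fold. The ratio of *Axl* was then 3.14 and that of C1q 2.08, both higher than with it.

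**Figure D4:**
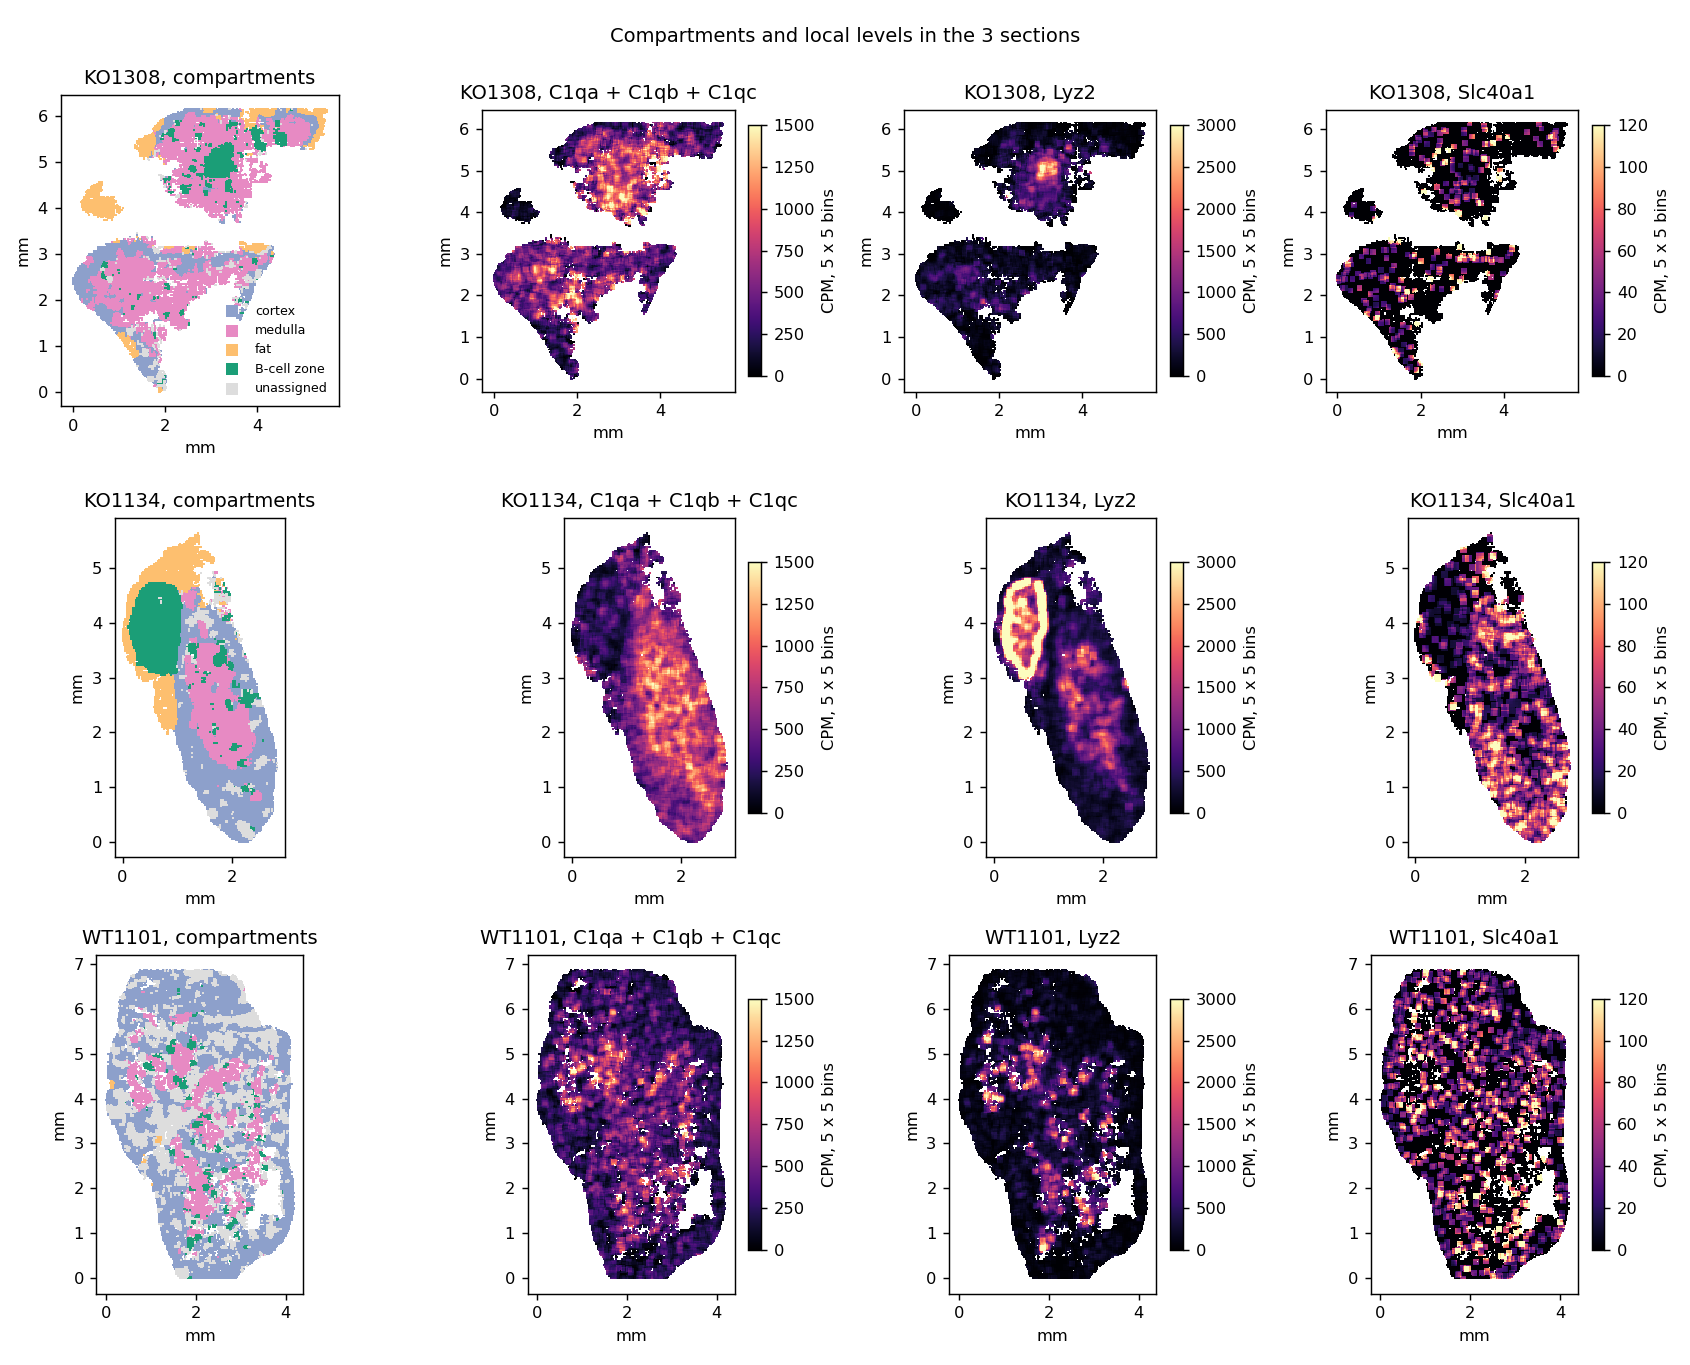
Maps of the 3 sections in mm, with compartments in the first column and the local CPM (5 × 5 bins, 135 µm) of the C1q genes, *Lyz2* and *Slc40a1* in the others, each colour scale cut at the value shown. The oval B-cell zone of KO1134 is bright for *Lyz2* and dark for C1q and *Slc40a1*, while the lobe beside it is bright for C1q.

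Within compartments the 2 KO sections often stood on different sides of WT. In cortex C1q was above WT in both (1.23-fold [1.17-1.298] in KO1308 and 2.16-fold [2.09-2.23] in KO1134), as was *C1qa* (1.92-fold and 2.43-fold), but *C1qb* was below WT in KO1308 (0.772-fold [0.697-0.854]). In medulla C1q was 1.14-fold [1.09-1.197] and 1.56-fold [1.49-1.64]. In the B-cell zone it was above WT in KO1308 (1.26-fold [1.15-1.39]) and below WT in KO1134 (0.6003-fold [0.550-0.656]), where most of the zone was the oval. The zone bins of WT carried more of the cortex list than those of KO1308 and KO1134 (1646 against 878 and 474 CPM). *Lyz2* was 1.05-fold and 1.97-fold the WT level in cortex, but 0.388-fold [0.371-0.405] in the medulla of KO1308 and 1.01-fold [0.969-1.04] in that of KO1134. No member was at least 2-fold above WT in both KO sections in cortex (5.32% of all genes were), in medulla (2.41%) or in the B-cell zone (3.85%). Weighted to the compartment mix of the WT section, the KO1308 ratios were 1.22 for C1q, 0.782 for the receptors, 0.673 for iron and haem and 0.755 for lysosome and lysozyme, and those of KO1134 were 2.001, 2.87, 1.71 and 1.66. The excess of lysosome and lysozyme over WT in KO1308 (1.30-fold) was thus not seen at an equal mix. The similar C1q ratios of the 2 KO sections over whole sections were not seen at an equal mix either.

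The other members mostly had a higher CPM in bins with C1q than in bins without, but their UMIs were not confined to bins with C1q. In WT, *Mertk* gave 428 UMIs in bins with C1q and 400 in bins without, and *Hmox1* gave 256 and 262. In the medulla of KO1134 the ratios of *Mertk*, *Axl*, *Slc40a1* and *Cd68* had intervals that included 1. Bins with at least 1 C1q UMI made up 36.1% of tissue bins in KO1308, 62.5% in KO1134 and 30.6% in WT, and they were deeper than the rest (medians of 1179 against 749 UMIs, 2882 against 2074, and 1684 against 1199). In WT all 7 other members were higher in bins with C1q, from 1.69-fold for *Hmox1* to 2.52-fold for *Lyz2*, and each interval excluded 1. In KO1308 the ratios ran from 1.36 for *Mertk* to 2.48 for *Lyz2*, and those of *Timd4* and *Hmox1* had intervals that included 1.

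KO1134 differed in *Lyz2* and *Timd4*. Over all its tissue *Lyz2* was lower in bins with C1q (0.870-fold [0.850-0.890]), but it was higher within cortex (1.53-fold) and medulla (1.67-fold) and even in the B-cell zone (1.02-fold [0.991-1.05]). Without the oval the tissue ratio was 1.69. *Timd4* gave 0.921 [0.811-1.05], and *Cd68* (1.503), *Slc40a1* (1.58), *Mertk* (1.48) and *Axl* (1.44) were higher in bins with C1q as in the other sections. Within cortex the ratio for *Axl* was 1.09 in both KO sections, with intervals that included 1, against 2.09 [1.87-2.35] in WT. Bins without C1q were also weighted to match those with C1q on classes of UMIs per bin within each compartment. *Lyz2* was then higher in bins with C1q in every section, at 1.56-fold in KO1308, 1.26-fold in KO1134 and 2.31-fold in WT. The matched ratios of *Mertk*, *Axl*, *Slc40a1* and *Cd68* ran from 1.28 to 1.76 in KO1308, from 1.21 to 1.38 in KO1134 and from 1.97 to 2.15 in WT. The value below 1 for *Lyz2* in KO1134 was thus not seen when depth class and compartment were matched.

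**Figure D5:**
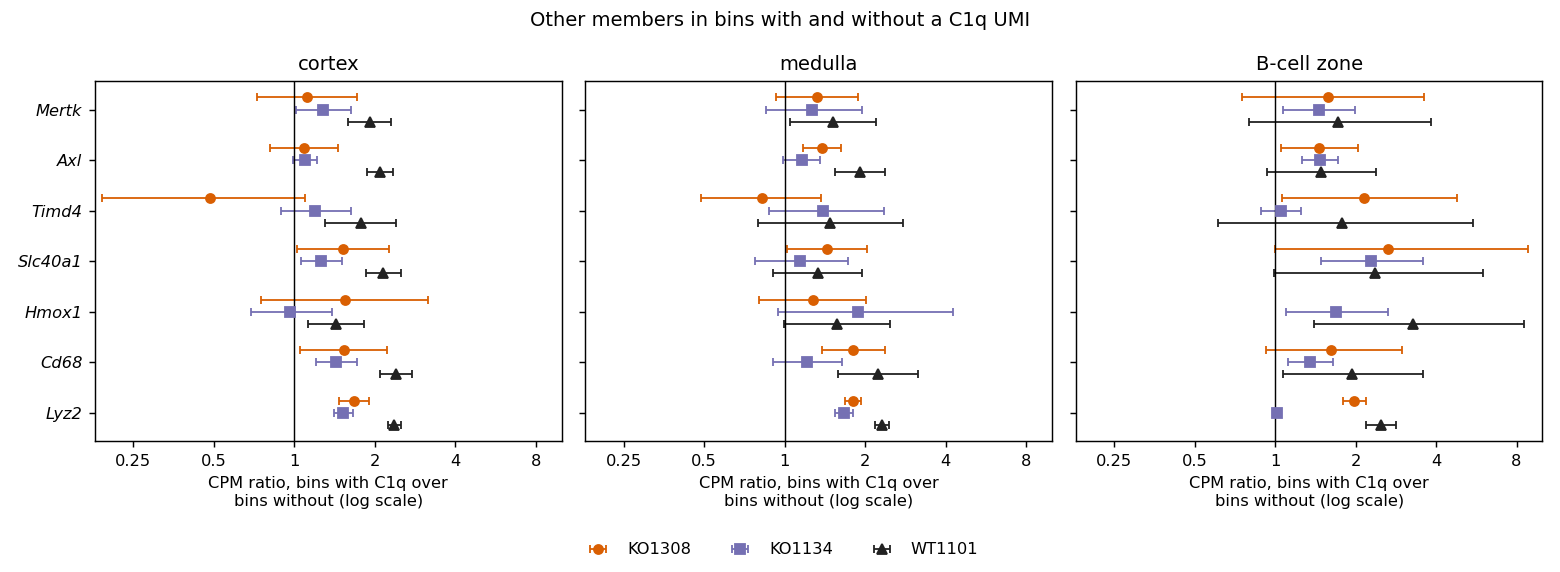
CPM of the other 7 members in bins with a C1q UMI over bins without one (log scale), in cortex, medulla and B-cell zone of the 3 sections, with 95% counting intervals; *Hmox1* in the B-cell zone of KO1308, with no UMI in bins without C1q, is not drawn. *Lyz2* lies right of 1, with an interval that excludes 1, in every panel and section except the B-cell zone of KO1134, where the interval of its ratio (1.02) includes 1.

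Over blocks of 216 µm, described by Spearman rho over 259 blocks in KO1308, 187 in KO1134 and 457 in WT that share a library and neighbours, C1q and *Lyz2* followed each other in KO1308 (0.72) and WT (0.78) but not in KO1134 (0.06). *C1qb* and *C1qc* gave 0.60, 0.83 and 0.58 in KO1308, KO1134 and WT. *Slc40a1* and *Lyz2* gave 0.03, -0.43 and 0.16. The KO1134 blocks included the oval, where *Lyz2* was high and C1q low, and no rho is given without it. Outside the oval, bins of KO1134 with C1q had 1.69-fold the *Lyz2* level of bins without. Among 10868 genes, those most like C1q in all 3 sections were *Mpeg1*, the pore protein of phagocytes (lowest rho 0.65), *H2-Ab1*, *Fcgbp*, *Krt5* and *Id2*. Those most like the lysosome and lysozyme pair were *Ctss* (0.77), a cathepsin of antigen-presenting cells, *Tmsb4x*, *Tmsb10*, *Apoe* and *H2-Eb1*. The receptors had *Mpeg1* (0.46), *Irf7*, *Hspa5*, *Grn* and *Vcam1*. For iron and haem the leading gene, *Wfdc17*, had a lowest rho of 0.17, too weak to describe a shared pattern, and *Dst*, *Fxyd2*, *Ttc23* and *Bnip3l* followed.

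Genes that work with the members were followed as 5 lists, and their counts are read beside the 10.7% of all genes that were at least 2-fold above WT in both KO sections. Complement was the list with the most such genes. Of its 10 genes with at least 100 UMIs, 8 were at least 2-fold above WT in both, with median ratios of 3.08 in KO1308 and 3.40 in KO1134. *C4b*, which C1q-bound protease cleaves, stood at 30.8 CPM in KO1308, 48.5 CPM in KO1134 and 4.53 CPM in WT. *C3*, the central component, stood at 338, 361 and 103 CPM, *C1s1*, the protease itself, at 71.4, 75.4 and 22.8 CPM, and *Itgax*, a subunit of a receptor for cleaved C3, at 29.1, 34.9 and 9.24 CPM. The lowest ratios of the list were those of *C2* (18.8, 20.9 and 11.04 CPM) and *Itgam* (2.73, 3.44 and 2.46 CPM). *C3*, *C1s1*, *Itgax* and *C4b* were higher in medulla than in cortex in every section, and the share of bins in each compartment differed between sections. Within medulla their ratios to WT were smaller than over whole sections. *C3* stood at 409 CPM in the medulla of KO1308, 553 CPM in that of KO1134 and 327 CPM in that of WT, *C1s1* at 92.9, 141 and 72.5 CPM, and *Itgax* at 37.4, 73.7 and 33.9 CPM. *C4b* kept a larger difference there, at 33.4, 46.9 and 7.53 CPM. In cortex these genes were above WT in both KO sections as well. *C3* stood at 123.6 CPM in the cortex of KO1308, 169.97 CPM in that of KO1134 and 56.46 CPM in that of WT. In the same order, *C1s1* stood at 22.98, 41.6 and 12.6 CPM, *Itgax* at 13.7, 26.98 and 5.67 CPM, and *C4b* at 9.07, 25.6 and 2.299 CPM. Many of the complement genes are made by fibroblasts too, and the fibroblast list (5 of 5 genes found) stood at 306, 318 and 141 CPM. Its part in the result was not tested.

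Of the 15 ligand and engulfment genes, 3 were at least 2-fold above WT in both (10.7% of all genes), with median ratios of 2.01 and 1.61. *Mfge8*, a bridging protein for apoptotic cells, stood at 131, 132 and 55.6 CPM in KO1308, KO1134 and WT. It was highest in the B-cell zone of both KO sections (539 and 256 CPM). In the order KO1308, KO1134 and WT it stood at 54.6, 86.0 and 54.7 CPM in cortex. In medulla it stood at 100, 114 and 86.4 CPM, so its ratios to WT were smaller within these compartments than over whole sections. *Cd36*, a scavenger receptor that fat cells carry as well, stood at 87.1, 73.1 and 15.2 CPM. In cortex it was at 21.8, 29.1 and 14.1 CPM, against 677 and 564 CPM in the fat of KO1308 and KO1134. *Dock1* (15.0, 10.8 and 6.01 CPM) and *Cd300lf* (4.44, 2.22 and 1.38 CPM) made up the high end of the list, and *Elmo1* (47.9, 35.1 and 49.8 CPM) and *Abca1* (68.2, 96.4 and 75.3 CPM) the low end.

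Of the 9 iron genes tested, 3 were at least 2-fold above WT in both (10.7% of all genes), with median ratios of 1.16 and 1.98. *Hp*, haptoglobin, stood at 28.0 and 20.4 CPM against 0.912 CPM in WT, with 425 of 492 UMIs in KO1308 and 589 of 634 in KO1134 lying in fat bins. *Trf*, transferrin, stood at 43.0, 38.1 and 17.4 CPM and *Slc11a1*, a metal transporter of phagosomes, at 6.99, 9.67 and 3.38 CPM, whereas *Hpx* gave 10, 40 and 12 UMIs in all. The low end held the ferritin gene *Ftl1* (454, 903 and 703 CPM) and *Cd163* (3.41, 16.5 and 19.3 CPM). *Cd163* was lower in KO1308 (0.177-fold [0.134-0.230]), where *Slc40a1* and *Hmox1* were low as well.

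Of the 11 lysosome genes, 2 were at least 2-fold above WT in both, near the 10.7% of all genes, with median ratios of 1.46 and 1.74. *Ctss* stood at 368, 723 and 204 CPM, *Lgmn* at 90.5, 78.7 and 37.1 CPM and *Dnase2a*, the nuclease that digests engulfed DNA, at 20.1, 20.1 and 9.59 CPM. *Gpnmb* stood at 15.1, 3.89 and 2.05 CPM, highest in the medulla of KO1308 (21.1 CPM). *Lipa*, the lysosomal acid lipase, was lower in both KO sections (63.6, 65.0 and 121.8 CPM) and so was *Laptm5* (604, 463 and 702 CPM).

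Of the 15 macrophage identity genes, 2 were at least 2-fold above WT in both, near the 10.7% of all genes, with median ratios of 1.15 and 2.27, and the high end belonged to KO1134. *Lyve1* stood at 1.19 CPM in KO1308, 41.5 CPM in KO1134 and 1.18 CPM in WT, *Cd5l* at 0.398, 18.1 and 1.48 CPM, and *Marco* at 0.512, 11.6 and 0.148 CPM. Of the KO1134 UMIs, 1117 of 1292 for *Lyve1* and 300 of 360 for *Marco* lay in the B-cell zone, but 189 of 563 for *Cd5l*, whose cortex held 246. *Siglec1*, the sialoadhesin of tissue macrophages, stood at 3.75, 7.81 and 0.641 CPM and was higher than WT in both. *Mrc1* (43.8, 79.8 and 54.9 CPM) and *Cx3cr1* (50.7, 28.1 and 44.5 CPM) had its lowest ratios.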

How the data were processed

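The authors deposited raw UMI counts per gene and barcoded spot, made from the reads against GRCm38 (build per the labels), with spot positions and a gene list. These deposited counts are whole numbers without normalisation. Spots 4.8 µm apart were summed in square bins of 27 µm. Tissue bins had at least 300 genes, at most 30% mitochondrial UMIs and a connected group of at least 200 bins, and held 17585464 (KO1308), 31120116 (KO1134) and 40575395 (WT) UMIs. A bin took the compartment whose marker list had the highest CPM in 5 × 5 bins over the mean of the 3 sections, if that ratio was at least 1 and at least 3 list UMIs lay there. Exact Poisson, conditional binomial and binomial intervals (95%) served for CPM, ratios and shares. No test was run. Folding was not removed here, no doublet caller was run on bins, and spot names shared between libraries (21.8% to 80.9%) are slide positions.

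The members and lists were chosen with earlier results of these data known. Named pathway genes are, per list, the 4 highest and 2 lowest ratios of KO mean to WT with at least 50 UMIs; genes most like a programme have the highest lowest rho among genes with at least 200 UMIs per section. Other cell lists not given in the report were dendritic (168, 206 and 96.4 CPM in KO1308, KO1134 and WT), endothelial (184, 148 and 128 CPM), muscle (39.6, 20.0 and 2.98 CPM) and plasma cell (7909, 4833 and 2469 CPM). GENCODE gave gene positions, and 99.8% of the listed genes were found in it. Python 3.11.15, numpy 2.4.6, scipy 1.17.1, pandas 2.3.3 and matplotlib 3.10.9 were used, and the computations were checked on simulated data. Alternatives changed bin width, gene minimum, window, reference, denominator, compartments, sections and the matching of bins on UMIs within compartment. The authors' clustering was not used here. A gene of the macrophage identity list is not reported here and was left out of its counts.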

Additional observations from a re-analysis of the deposited data

Results flagged for a closer look

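*Mertk* was picked out because its medulla to cortex ratio lay above 1 in the WT section (1.48) and below 1 in both KO sections (0.925 in KO1308 and 0.889 in KO1134). The difference between genotypes was not tested, and both KO intervals included 1.

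UMIs of the members were also found on the slides over 135 µm from any tissue bin, an area that the comparisons did not use. In KO1308 the 10 members summed to 629 CPM there (242 UMIs in 3385 bins), above the limit of 3 UMIs, and in WT to 302 CPM (5 UMIs in 172 bins). KO1134 gave 1 UMI in 89 such bins.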

How the results depend on the processing

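Of 213 recomputed values of the 18 main results, 198 counted as the same. For ratios this meant staying on the same side of 1 and within the spread between sections. Shares were judged by the spread alone, and the count of members by a fold limit. A further 9 moved and 6 changed direction, and of 110 for single genes 6 changed direction. The spread is the standard deviation of the section values. Leaving out a section always moves a mean by less than that, so the count of 198 does not measure stability. The lysosome and lysozyme ratio, with a mean of 2.31 and a spread of 1.43, was 1.301 in KO1308 and 3.33 in KO1134. The mean KO to WT ratio of iron and haem (0.961) had no stable direction: 1.02 without mitochondrial and ribosomal genes, 1.08 without the B-cell zone, 1.00206 without fat, 1.05 without the oval of KO1134, 1.19 at the WT mix of compartments, and 0.597 to 1.32 when a KO section was left out. Leaving out KO sections likewise turned *Slc40a1* (0.581 to 1.42; also 0.985 at 50 µm bins and 0.986 at 150 genes), *Mertk* (0.842 to 1.56), *Cd68* (0.747 to 1.73) and *Hmox1* (0.633 to 1.10). *Lyz2* in the B-cell zone over cortex averaged 7.93 at 50 µm bins and 5.35 against each section's own mean. Members at least 2-fold above WT in both KO sections numbered 4 without KO1308, 1 without KO1134 and 0 at the WT mix. C1q without *C1qa* gave a KO mean of 1.46. Bins with at least 2 C1q UMIs gave 1.91 for *Mertk*, 2.05 for *Axl*, 2.06 for *Slc40a1* and 2.44 for *Cd68*. The WT mix, C1q without *C1qa* and the oval were added after seeing the data, and the causes were not tested. No paired analysis was possible because the WT group has 1 section and no test was run. WT fat, with 92267 UMIs, allows a level of up to 32.5 CPM for a gene at 0.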
